A study of Mus musculus with 12 samples.

Results

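Whole lungs of mice given ovalbumin alone were set directly against whole lungs of mice given ambient particulate matter (PM) alone. The comparison used the 3 arrays labelled OVA and the 3 labelled PM, 6 of the 12 arrays of the series, and the other arrays were 3 of PBS controls and 3 labelled OVA/PM that received both agents. Per the labels, the animals were 8 to 10 weeks old in every group. The arrays labelled OVA came from animals sensitized with ovalbumin at 0.4 mg/kg into the peritoneum on day 0 and challenged through the trachea at 30 mg/kg on day 14. The arrays labelled PM came from animals that aspirated 50 µl of a PM suspension at 10 mg/ml in PBS, placed at the back of the mouth. In the study's methods the mice were male A/J, the particles were one pooled sample gathered from Baltimore air, instilled rather than inhaled, and the expression profiles belong to the fourth day after the particles. By the same methods the particles were given 3 days after the ovalbumin challenge. Agent and time since that agent was given therefore differ together between the 2 groups and cannot be told apart. RNA came from the lungs of 3 animals a group.

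The names OVA and PM on these arrays may be exchanged relative to the study's own table of fold changes. The names are used here as the arrays carry them. An exchange would turn the sign of every difference below and move each count given for one side to the other, and would change no total and no p.

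Ovalbumin after sensitization is the standard way to raise a type 2 airway reaction in mice, in which interleukins 4 and 13 act through STAT6 on airway epithelium and macrophages, goblet cells load with mucus, and eosinophils enter the lung. Particles taken up by alveolar macrophages are known instead for neutrophil chemokines, acute phase proteins and innate sensing through NF-kappa B. The direct comparison asks which genes separate the lungs of the 2 exposures, without passing through the PBS control.

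Values were log2 intensities of 45101 probe sets. A probe set was tested when 1 of the groups had each of its 3 arrays at or above 4.93, the median of every value in the series, and 22404 probe sets met this. They covered 11331 named genes, each represented by its brightest probe set. Lung identity was plain in all 6 arrays. Sftpc of alveolar type 2 cells lay between 15.46 and 15.71, Scgb1a1 of club cells between 15.93 and 16.11 and Ager of alveolar type 1 cells between 14.98 and 15.35, while albumin of the liver stayed between 2.65 and 2.71. In whole tissue, a change in the number of cells of a type and a change in RNA per cell cannot be told apart, and this holds for each result below.

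The lungs labelled OVA carried higher levels of many macrophage, C-type lectin, interferon-induced, T cell and cell division genes, and the lungs labelled PM much higher levels of a short set of secreted products of type 2 airway reactions, led by Chil4, Rnase2a and Clca1. With limma, 1165 probe sets passed an adjusted p of 0.05, which was 5.2% of those tested. Of these, 726 (3.24%) were higher in OVA and 439 (1.96%) in PM. Counted as genes, 480 were higher in OVA (4.24% of the genes tested) and 216 in PM (1.91%). These shares over all genes are the background for the count of each list below. A few calls in a short list say little of that list. The larger differences lay mostly on the OVA side, where 295 genes passed with over 2-fold (2.6% of genes tested) against 31 on the PM side (0.274%). Genes that passed differed by a median of 1.28 on the log2 scale where OVA was higher and of -0.68 where PM was higher, and the median over all genes tested was -0.03. Arrays of the 2 groups did not overlap in 38.6% of the probe sets and 41.8% of the genes tested, with OVA higher in 19.9% and PM higher in 22% of the genes. The plot of group means shows this asymmetry.

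**Figure D1:**
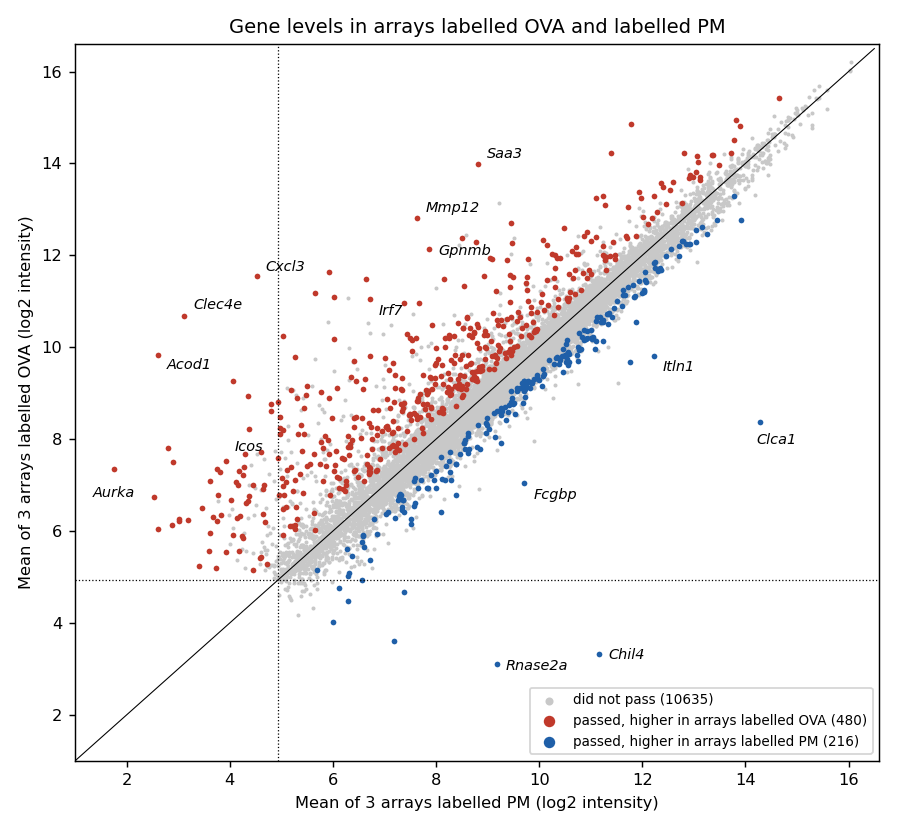
Each point is 1 gene tested, at its mean log2 intensity over the 3 arrays labelled PM (horizontal axis) and over the 3 labelled OVA (vertical axis). Red points passed with OVA higher (480 genes), blue points passed with PM higher (216 genes), grey points did not pass, the solid line marks equal levels and the dotted lines the level of 4.93. Red points reach far above the line, and few blue points besides Chil4, Rnase2a and Clca1 lie far below it.

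The arrays of each group were not equally far apart, and this touches every count. On the first principal component, which held 63.8% of the variance, the arrays labelled PM lay at 27.1, 44.4 and 51.3 and those labelled OVA at -59.8, -15.3 and -47.7. OVA replicate 2 thus lay nearest the PM arrays, and it was the OVA array closest to PM in 272 of the 295 genes over 2-fold higher in OVA. Most adjusted p-values sat close to the threshold, with 478 of the 1165 probe sets under 0.04 and 10 under 0.01. Leaving out OVA replicate 1 left 4 probe sets past the threshold in limma, leaving out OVA replicate 3 left 6, and leaving out PM replicates 1, 2 and 3 left 78, 18 and 77. Without OVA replicate 2, 3587 passed. The probe sets that passed in the fit of 6 arrays and without each array in turn were 4, those of Mmp12, Gpnmb, Lhfpl2 and Clca1. Every gene that passed and is named below kept its direction whichever array was left out, and each passed without OVA replicate 2. Beyond 2-fold, OVA-higher genes outnumbered PM-higher genes in every fit tried, but among probe sets of any size of difference the balance turned to the PM side with SAM (2873 against 3386), with array weights (2045 against 2745), in a fit of all 4 groups (1604 against 1691), with a filter at the 75th percentile (911 against 1024) and without OVA replicate 2 (1663 against 1924).

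Among the chemokines that call neutrophils, Cxcl3 separated the groups widely and the others less. Cxcl3, which binds the receptor CXCR2 of neutrophils, read 12.36, 10.32 and 11.96 in the OVA arrays and 3.65, 5.96 and 3.96 in the PM arrays. The groups did not overlap, and PM replicate 2 was the only PM array above 4.93. The difference was 7.02 ± 0.77 (SE, n = 3 each) on the log2 scale, 130-fold as measured and 77.4-fold with the 2 PM arrays under 4.93 set to that level, at an adjusted p of 0.0264. The promoter of Cxcl3 is shown because the gene passed and the sequence carries an NF-kappa B motif. These are the 250 bases before its start (RefSeq, GRCm38.p6, chr5:90785851-90786100, plus strand), with the motif (GGG, 2 bases of any kind, TTTCC) in capitals, 73 bases before the start:
Cxcl3: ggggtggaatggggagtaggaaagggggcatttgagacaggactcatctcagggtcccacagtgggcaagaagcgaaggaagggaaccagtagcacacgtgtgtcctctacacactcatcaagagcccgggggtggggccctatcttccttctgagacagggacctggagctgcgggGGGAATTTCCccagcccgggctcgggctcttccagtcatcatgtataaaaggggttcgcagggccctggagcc
Searched on both strands of windows from 250 bases before to 50 after a start, this motif stood in 1.63% of 32851 windows of mouse genes, in 1.66% of the windows of genes tested and in 3.28% of 274 windows of genes over 2-fold higher in OVA. A match describes letters and is not a measured binding site.

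Cxcl2 and Cxcl1, which share the receptor with Cxcl3, did not pass. Cxcl2 read 12.25, 9.63 and 11.35 in the OVA arrays against 4.74, 9.92 and 4.21 in the PM arrays, where PM replicate 2 reached the OVA range, and its difference was 4.79 (95% interval 0.93 to 8.64, adjusted p = 0.107). Cxcl1 differed by 2.03 (-0.05 to 4.12, adjusted p = 0.169). Of the 6 neutrophil chemokines and related platelet chemokines tested, 2 passed, Cxcl3 and platelet factor 4 (Pf4, 1.16), and their median difference was 1.60. Other chemokines that were higher in OVA were Cxcl9, an interferon-induced attractant of T cells (4.52, 22.9-fold), Cxcl13, which attracts B cells (2.53), Ccl9 of the monocyte attractants (2.14) and Ccl22, which attracts cells bearing CCR4 (1.83). Cxcl10 read 12.30, 8.02 and 11.34 against 4.90, 6.11 and 6.68, without overlap, and its adjusted p was 0.0624. Il1rn, the antagonist of the interleukin-1 receptor, was 33.9-fold higher in OVA (12.22, 9.81 and 11.28 against 6.28, 5.63 and 6.14, adjusted p = 0.0278), and its other 2 probe sets passed in the same direction. Il1b itself overlapped between the groups (2.34, 0.08 to 4.61), as did Il6 (2.53, -0.05 to 5.12), and Il1rn was the 1 call among 11 innate cytokines and their antagonists. None of 15 genes of NF-kappa B feedback and signalling passed (median 0.69), nor any of 11 genes of STAT3 and SOCS feedback (median 0.18). Without OVA replicate 1 none of the 7 genes named here that passed did so (adjusted p 0.0798 to 0.139), nor without OVA replicate 3 (0.148 to 0.175) or any 1 of the PM arrays (0.0549 to 0.146).

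Clec4e (Mincle) is a C-type lectin of macrophages and neutrophils that senses glycolipids of mycobacteria and material of dead cells. It read 11.48, 9.53 and 11.02 in OVA and 3.74, 3.13 and 2.49 in PM. The PM arrays all lay under 4.93 and the OVA arrays far above it, so Clec4e was at least 53.7-fold higher in OVA (difference 7.56 ± 0.56, adjusted p = 0.0113). Clec4d, its neighbour and partner receptor, read 12.09, 10.05 and 11.37 against 6.44, 5.07 and 5.44, a 46.0-fold difference (adjusted p = 0.0240). Among the 12 myeloid C-type lectins tested, 7 passed with OVA higher and none with PM higher, with a median of 1.52. The others were Clec5a (at least 5.94-fold), the scavenger receptor Msr1 carried on the same list (8.21-fold), Clec4n or Dectin-2 (7.14-fold), Clec7a or Dectin-1, the receptor of fungal glucans (4.16-fold), and the inhibitory Clec4a2 (1.98-fold). Of 13 toll-like receptors and their partners, 4 passed, and all were higher in OVA. These were Cd14, the coreceptor of endotoxin (2.04 on the log2 scale), Tlr13 (1.90), Tlr1 (1.57) and Pycard, the adaptor of inflammasomes (1.42). Without OVA replicate 1 or OVA replicate 3 none of these 11 genes passed (adjusted p 0.0702 to 0.125 and 0.0873 to 0.173), and without PM replicate 2 none did (0.0648 to 0.140), while Clec4e and Clec4d passed without PM replicate 1 and Clec4e without PM replicate 3.

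Acute phase and antimicrobial proteins of the airway followed the same side. Saa3, the serum amyloid A made in inflamed lung, was among the brightest genes, at 14.93, 12.41 and 14.64 in OVA against 8.02, 8.78 and 9.66 in PM. The groups were far apart even at OVA replicate 2, and the difference was 36.1-fold (5.17 ± 0.75, adjusted p = 0.0348). Of 14 genes of this list tested, 4 passed with OVA higher and none with PM higher, the others being the iron-binding proteins Lcn2 (8.41-fold) and Ltf (7.52-fold) and the acute phase glycoprotein Orm1 (6.18-fold). Reg3g, an antimicrobial lectin of airway epithelium, differed by 1.01 (0.15 to 1.87) and did not pass (adjusted p = 0.120). Of 15 complement genes, 2 passed, factor B (Cfb, 12.93, 11.43 and 12.77 against 8.49, 8.10 and 8.95, 14.6-fold) and Itgax, a chain of a complement receptor on alveolar macrophages and dendritic cells (3.15-fold). The C3a receptor C3ar1 (2.31, adjusted p = 0.0615) and C1qa (1.25, adjusted p = 0.0621) did not overlap between groups without passing.

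Acod1 makes itaconate, the antimicrobial acid of activated macrophages. It read 11.89, 7.12 and 10.51 in OVA and 2.73, 2.69 and 2.38 in PM, where every array lay well under 4.93, and was at least 30.1-fold higher in OVA (adjusted p = 0.0386). The secreted epithelial defence proteins Dmbt1 and Gp2 were higher in OVA too, Dmbt1 at 8.60, 5.99 and 7.47 against 1.92, 1.65 and 1.72 (at least 5.36-fold) and Gp2 at 9.14, 7.13 and 8.38 against 3.30, 5.63 and 4.21 (14.3-fold as measured, 8.28-fold with the 2 PM arrays under 4.93 set to that level). For the 9 genes of these lists and enzymes that passed the call was lost without any 1 array other than OVA replicate 2, at adjusted p from 0.0725 to 0.129 without OVA replicate 1, from 0.148 to 0.169 without OVA replicate 3 and from 0.0529 to 0.126 without a PM array. The plot of the largest differences shows Saa3, Acod1 and Dmbt1 by array.

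**Figure D2:**
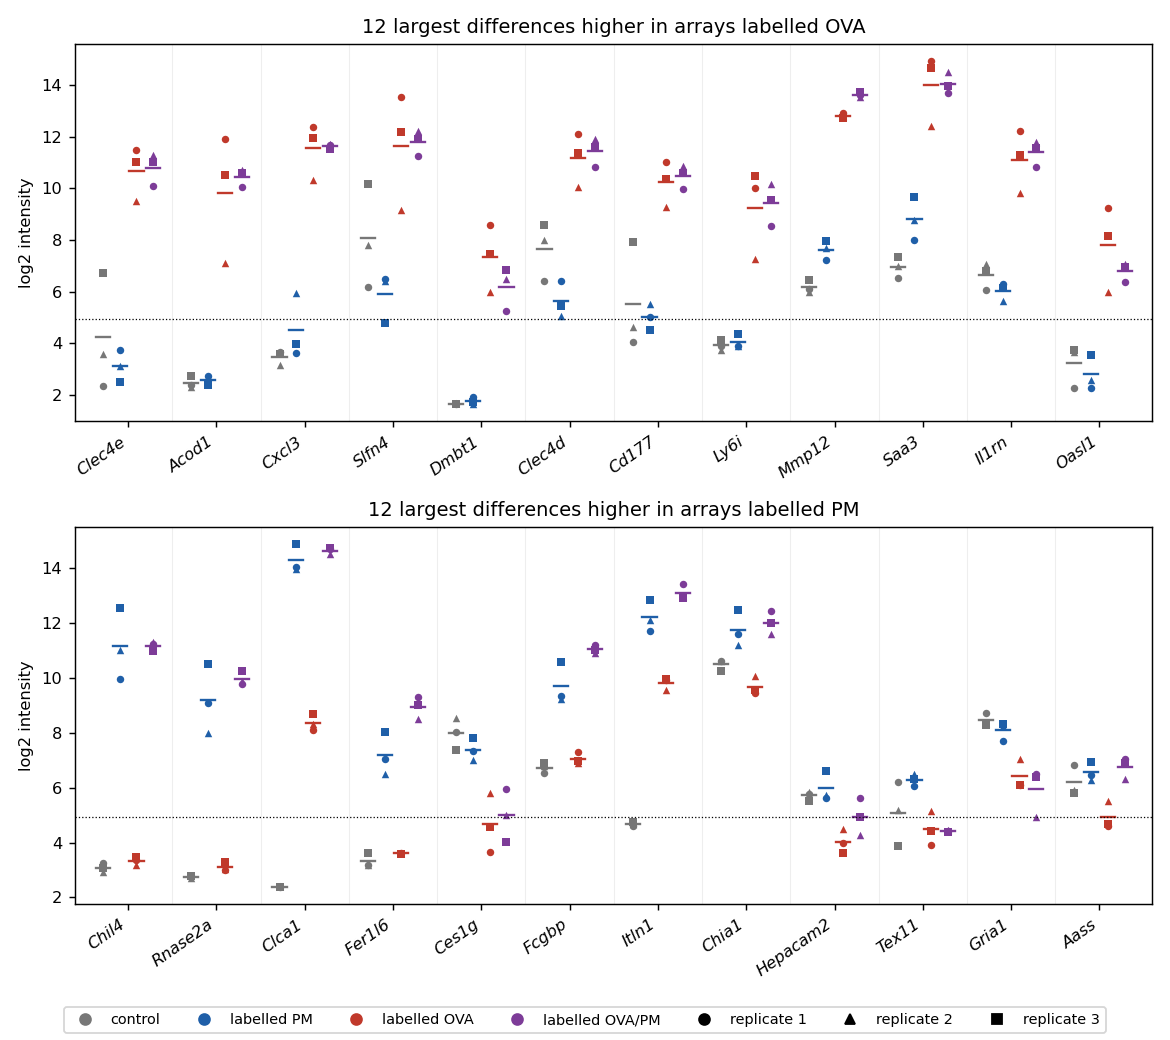
The 12 genes with the largest differences that passed in each direction, as log2 intensity in each of the 12 arrays. Colour gives the group, symbol shape the replicate number, short bars the group means and the dotted line the level of 4.93. In the upper panel OVA replicate 2 (red triangle) is the lowest OVA array for most genes, with Mmp12 the tightest, and in the lower panel the OVA arrays lie close together for Chil4, Rnase2a, Clca1 and Fer1l6 while PM replicate 3 (blue square) is the highest PM array.

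Macrophage proteases and scavenger receptors held the most secure differences on the OVA side. Mmp12, the elastase of macrophages, read 12.94, 12.81 and 12.71 in OVA and 7.24, 7.70 and 7.95 in PM. Its OVA arrays lay within a narrow band, unlike those of Cxcl3 or Acod1, and the difference was 5.19 ± 0.19, or 36.5-fold (adjusted p = 0.0011). Gpnmb, a membrane glycoprotein of lipid-laden and phagocytosing macrophages, read 12.02, 12.01 and 12.36 against 7.83, 7.66 and 8.10, 19.2-fold (adjusted p = 0.0011). Marco, the scavenger receptor by which alveolar macrophages bind unopsonized particles, read 11.14, 10.86 and 10.91 against 7.41, 7.48 and 8.10, 9.87-fold (adjusted p = 0.0081). In these 3 genes OVA replicate 2 did not stand apart.

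Of 23 genes on this list tested, 15 passed with OVA higher and none with PM higher, and the median was 1.17. They included the collagen-degrading cathepsin Ctsk (9.63-fold), the lipid receptor Trem2 (at least 6.94-fold), Mmp8 (11.4-fold), Mmp13 (at least 2.58-fold) and Timp1, an inhibitor of metalloproteinases (14.7-fold). Ch25h, an enzyme of macrophages that makes an antiviral oxysterol, stood on the cholesterol list as its 1 call among 15 genes (7.18-fold higher in OVA). Lysosome genes moved by less, with 7 of 15 higher in OVA, among them Acp5 (1.64), Atp6v0d2 of the proton pump (1.34), the galactosidase Gla (1.25) and the cathepsins Ctsz (1.11), Ctsd (0.88) and Ctsb (0.82), all on the log2 scale. The metal transporter of phagosomes, Slc11a1, was 6.57-fold higher in OVA. General monocyte and macrophage genes were higher as well, 10 of 22 in OVA and none in PM, with a mean over the list of 11.22, 10.01 and 11.01 in the OVA arrays and 9.19, 8.99 and 9.39 in the PM arrays. Named members were the Fc receptors Fcgr1 (9.81-fold), Fcgr4 (9.61-fold) and their chain Fcer1g (3.43-fold), Ms4a7 (5.59-fold), Cd68 (4.20-fold), Aif1 (3.93-fold) and the oxidase subunit Cybb (3.55-fold). The separate list of alveolar macrophage genes had a median of 0.07, with 7 of 14 higher in OVA in mean. Of these 14, 4 passed with OVA higher and none with PM higher, and the list means overlapped between the groups. How far the number of macrophages sets the protease and scavenger values was not tested. Mmp12 and Gpnmb passed whichever array was left out. Ctsk and Marco lost the call without OVA replicate 1 or OVA replicate 3 alone, and the other 19 of the 23 genes named in this paragraph and the one before lost it also without at least 1 PM array (adjusted p up to 0.176 without OVA replicate 3).

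Neutrophil genes were all higher in OVA in mean, with a median of 1.67, but most did not pass. Of 9 tested, 3 passed with OVA higher, Mmp8, Lcn2 and Ltf. These are also on the lists above, and Lcn2 and Ltf are made by epithelium too. The cytoplasmic S100a9 read 14.03, 9.92 and 11.54 in OVA and 11.39, 10.17 and 8.89 in PM, and the receptor Csf3r 11.64, 8.73 and 10.10 against 9.22, 8.46 and 7.86. Both overlapped (S100a9 1.68, -1.04 to 4.40, Csf3r 1.64, -0.18 to 3.46), as did S100a8 (1.67, -0.74 to 4.07), and the spread among the OVA arrays was wider than the difference. The list mean was 11.87, 9.53 and 10.70 in OVA against 9.12, 8.46 and 8.44 in PM. In the control arrays it was 8.78, 9.86 and 10.60, which overlapped both groups. Cd177, a surface protein of neutrophils, did separate the groups (11.04, 9.29 and 10.38 against 5.03, 5.53 and 4.51, 37.1-fold, adjusted p = 0.0197), and so did Ly6i of inflammatory monocytes (at least 20.1-fold, adjusted p = 0.0386). Both calls were lost without OVA replicate 1 (adjusted p 0.0725 and 0.116), without OVA replicate 3 (0.135 and 0.157) and without each PM array (0.0510 to 0.122).

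Interferon-induced genes had a high median difference, although the mean over the list in OVA replicate 2 (9.99) came close to that in PM replicate 2 (9.53). Irf7, the transcription factor that amplifies type I interferon, read 11.68, 10.00 and 11.50 in OVA and 6.61, 6.999 and 6.55 in PM, 20.2-fold (4.34 ± 0.45, adjusted p = 0.0226). Rsad2 (viperin) read 13.02, 9.36 and 12.10 against 6.64, 6.63 and 6.65, 28.9-fold (adjusted p = 0.0435). The PM arrays of Rsad2 lay almost together while its OVA arrays spread widely, with OVA replicate 2 lowest. Of 24 genes of the list, 11 passed with OVA higher and none with PM higher, and the list's median of 2.01 compares with -0.03 over all genes tested. The antiviral effectors Mx1 (at least 14.3-fold), Oas2 (12.8-fold), Oas1a (12.1-fold) and Ifit1 (10.1-fold) were among them. Oasl1 (at least 7.34-fold) and Slfn4, an interferon-induced gene of myeloid cells (52.6-fold), stood outside the list. The guanylate-binding proteins and GTPases known from interferon gamma gave no call, although all 24 genes of the list were higher in OVA in mean. Gbp2 for example read 12.57, 10.93 and 12.52 against 10.65, 11.87 and 10.87 and overlapped (0.88, -0.42 to 2.17). The interferon-induced chemokine Cxcl9, described above, did pass. Interferon gamma itself did not reach the level for testing. All 8 calls named here were lost without OVA replicate 1 (adjusted p 0.0872 to 0.124), without OVA replicate 3 (0.143 to 0.175) and without each PM array (0.0618 to 0.141).

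The promoters of 3 of these genes are printed because each holds the interferon response element that these genes are known for. Each line gives the 250 bases before the start on the gene's strand (RefSeq, GRCm38.p6), with matches to the element (GAAA, 2 bases of any kind, GAAA) on either strand in capitals. Ifit1 lies at chr19:34640639-34640888 on the plus strand with matches 104 and 85 bases before the start, Oas1a at chr5:120907526-120907775 on the minus strand with overlapping matches 20 and 14 bases before it, and Rsad2 at chr12:26456453-26456702 on the minus strand with a match 120 bases before it:
Ifit1: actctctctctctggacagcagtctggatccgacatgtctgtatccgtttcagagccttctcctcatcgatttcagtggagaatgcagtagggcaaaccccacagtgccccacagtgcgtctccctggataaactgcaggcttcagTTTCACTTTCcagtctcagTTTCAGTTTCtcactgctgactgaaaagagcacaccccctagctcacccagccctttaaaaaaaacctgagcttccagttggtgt
Oas1a: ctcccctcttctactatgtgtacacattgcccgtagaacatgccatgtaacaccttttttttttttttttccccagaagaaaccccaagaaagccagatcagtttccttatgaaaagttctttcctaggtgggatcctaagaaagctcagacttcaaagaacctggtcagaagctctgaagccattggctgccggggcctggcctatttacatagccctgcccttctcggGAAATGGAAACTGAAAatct
Rsad2: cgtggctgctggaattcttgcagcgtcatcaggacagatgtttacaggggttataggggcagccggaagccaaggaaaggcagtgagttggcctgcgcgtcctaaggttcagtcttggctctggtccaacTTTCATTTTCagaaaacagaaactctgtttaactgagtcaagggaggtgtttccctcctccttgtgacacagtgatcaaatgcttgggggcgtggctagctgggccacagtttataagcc
This element stood in 3.44% of the 32851 windows and in 3.01% of windows of genes tested. Among the 274 windows of genes over 2-fold higher in OVA, 27 held it (9.85%). Of the 11 interferon-induced genes that passed, 7 had a window searched, and the element stood in 4 of these 7 windows. It stood in 0 of the 29 windows of genes over 2-fold higher in PM. In Oas1a a match to the STAT6 motif (TTC, 4 bases of any kind, GAA), 27 bases before the start, overlaps it. The STAT6 motif was in 6.95% of all windows, 5.32% of those of genes tested, 9.85% of those of genes over 2-fold higher in OVA and 3.45% of those over 2-fold higher in PM, and the xenobiotic response element TNGCGTG in 5.07%, 7.93%, 4.74% and 3.45%. These shares are descriptions, and no test was made of them.

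Cell division genes gave the list with the highest median as measured. Its mean in PM replicates 1 and 2 lay under 4.93, so the size and rank of that median are not sure. Aurka, a kinase of the mitotic spindle, read 7.27, 6.19 and 6.79 in OVA and 2.41, 2.27 and 2.90 in PM, at least 3.54-fold (4.23 ± 0.30 on the log2 scale, adjusted p = 0.0113). Cdk1, the kinase that drives entry into mitosis, read 9.50, 8.16 and 9.05 against 4.88, 4.47 and 6.57, 12.1-fold (adjusted p = 0.0407). PM replicate 3 was the highest PM array in both, without reaching the OVA range. Of 20 mitosis genes tested, 16 passed with OVA higher and none with PM higher (median 3.03), and the mean over the list was 8.50, 7.52 and 8.26 in OVA against 4.84, 4.63 and 6.04 in PM. Other members were the cyclins Ccnb2 (11.2-fold) and Ccna2 (7.57-fold), Birc5 (9.57-fold), Top2a (8.60-fold), Cenpe (at least 2.16-fold) and Kif20a (at least 2.31-fold). DNA replication genes had smaller differences as measured, with 12 of 22 higher in OVA and a median of 0.98. Among them were Tk1 (8.63-fold as measured, 5.48-fold with the 2 PM arrays under 4.93 set to that level), Uhrf1 (7.77-fold), Rrm2 of ribonucleotide reductase (6.02-fold), Pole (at least 2.65-fold), the helicase subunit Mcm5 (2.93-fold), the licensing factor Cdt1 (2.77-fold) and the ligase Lig1 (2.35-fold). Without PM replicate 3, 8 of these 15 genes passed, without PM replicate 1 Aurka and Uhrf1 did, and none did without OVA replicate 1 (adjusted p 0.0697 to 0.139), OVA replicate 3 (0.0850 to 0.175) or PM replicate 2 (0.0591 to 0.135).

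**Figure D3:**
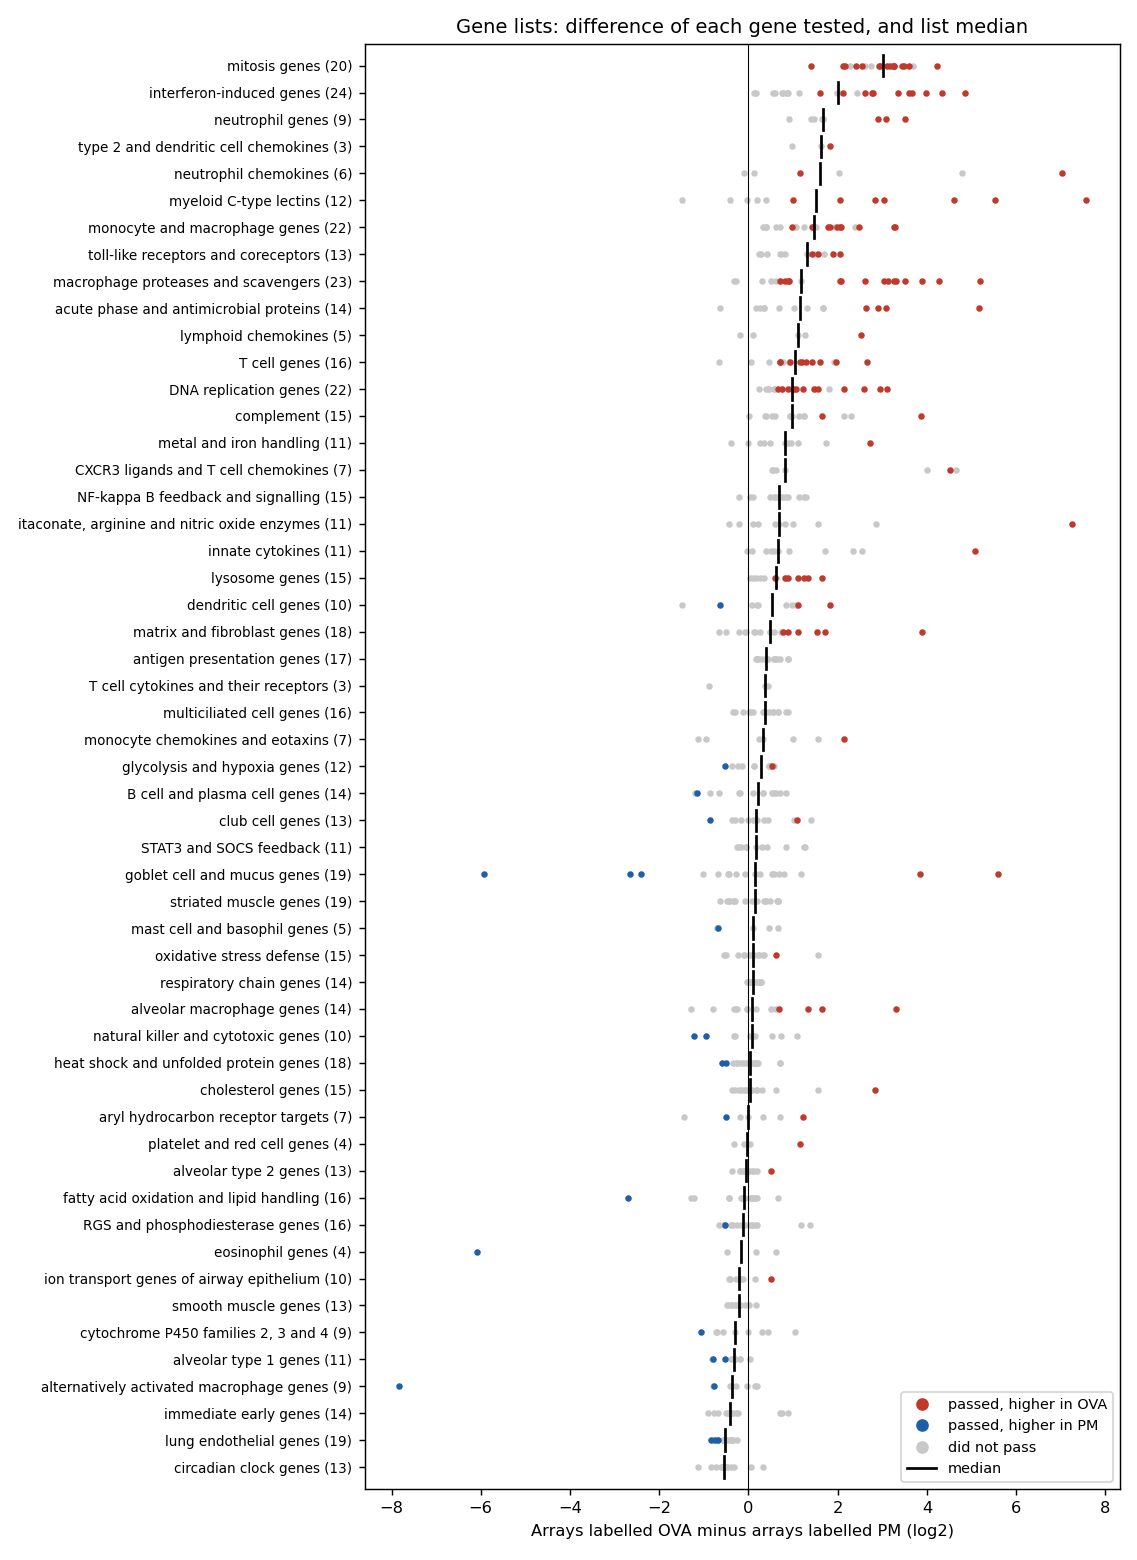
Each row is 1 gene list with the number of its genes tested in parentheses, each dot 1 gene at its log2 difference (arrays labelled OVA minus arrays labelled PM), and each black bar the list's median. Red and blue dots passed with OVA or PM higher and grey dots did not pass. Mitosis genes (median 3.03) and interferon-induced genes (2.01) lie highest, many lists have medians near 0, and the list of goblet cell and mucus genes has members far out on both sides.

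T cell genes were also higher in the arrays labelled OVA, with another order of the arrays. Icos, a costimulatory receptor of activated and follicular helper T cells, read 7.73, 7.72 and 7.33 in OVA and 5.12, 4.62 and 5.06 in PM, 6.32-fold (2.66 ± 0.18, adjusted p = 0.0094), and its other 2 probe sets passed in the same direction. Cd5 read 6.91, 7.49 and 6.54 against 5.46, 4.95 and 4.66 (3.87-fold, adjusted p = 0.0376). OVA replicate 2, lowest in the innate genes, was the highest OVA array in Cd5, and likewise in Cd3d, Cd3g, Cd8b1 and the chemokine Ccl22. Of 16 T cell genes, 10 passed with OVA higher and none with PM higher, with a median of 1.05 and list means of 7.20, 7.57 and 7.12 against 6.27, 6.20 and 6.21. They included the antigen receptor chains Cd3d (2.43-fold), Cd3g (2.23-fold) and Cd3e (1.63-fold, with adjusted p = 0.161 in a fit of all 4 groups), the coreceptor chain Cd8b1 (2.68-fold) and the costimulatory receptor Tnfrsf4 (at least 1.52-fold). The cytokines Il4, Il5 and Il13 lay below the level for testing in both groups. Icos passed without any 1 PM array, Tnfrsf4 without PM replicate 1 or 3, and no gene of these 7 passed without OVA replicate 1 (adjusted p 0.0702 to 0.120) or OVA replicate 3 (0.0518 to 0.167).

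Matrix genes of fibroblasts were moderately higher in OVA, with 6 of 18 passed, none with PM higher, and a median of 0.48. Col1a1 read 12.19, 11.63 and 12.03 against 10.76, 10.12 and 10.34 (2.92-fold, adjusted p = 0.0338), and Tnc, the tenascin of healing tissue, 9.54, 8.53 and 9.12 against 7.69, 7.55 and 6.79 (3.29-fold). The groups did not overlap in either. Col3a1 (2.17-fold), elastin (Eln, 1.85-fold, with adjusted p = 0.0514 in a fit of all 4 groups) and Col1a2 (1.72-fold) also passed, and Timp1 is on this list as well. The 5 genes other than Timp1 lost the call without any 1 array other than OVA replicate 2, at adjusted p of 0.106 to 0.130 without OVA replicate 1, 0.157 to 0.170 without OVA replicate 3 and 0.0502 to 0.132 without a PM array.

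On the PM side, the difference was carried by few genes of large size. Chil4, a chitinase-like secreted protein of type 2 airway reactions, read 9.96, 11.00 and 12.53 in PM and 3.35, 3.17 and 3.48 in OVA. Its OVA arrays lay at the level of the PBS controls (mean 3.08), and Chil4 was at least 75.2-fold higher in PM (-7.83 ± 0.61 on the log2 scale, OVA minus PM, adjusted p = 0.0120). Rnase2a, an eosinophil-associated ribonuclease, read 9.07, 7.98 and 10.49 in PM and 2.99, 3.03 and 3.29 in OVA, at least 19.1-fold higher in PM (adjusted p = 0.0221). Probes of Chil4 and Rnase2a may also bind transcripts of close relatives, Chil3 and other eosinophil-associated ribonucleases, so the gene behind each signal is uncertain. Chil3 did not pass (-0.80, -1.77 to 0.18), and Retnla, another product of macrophages and epithelium under interleukin-4, was high in both groups, at 14.34, 13.67 and 14.08 in OVA and 14.26, 14.21 and 14.48 in PM (-0.29, -0.74 to 0.16).

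Clca1, a secreted protein of mucous cells induced by interleukin-13, read 14.03, 13.95 and 14.88 in PM and 8.10, 8.31 and 8.69 in OVA. It was thus present in both, against a control mean of 2.39, and 60.5-fold higher in PM (-5.92 ± 0.28, adjusted p = 0.0031). Itln1, a lectin of goblet cells, read 11.72, 12.11 and 12.85 in PM and 9.93, 9.54 and 9.94 in OVA (5.35-fold, adjusted p = 0.0307). Fcgbp, a mucus protein, read 9.32, 9.24 and 10.56 against 7.30, 6.88 and 6.96, 6.32-fold higher in PM (adjusted p = 0.0338), its OVA arrays close to the control mean of 6.73. The acidic chitinase Chia1 was 4.21-fold higher in PM (adjusted p = 0.0401), and Fer1l6, a ferlin-family gene, at least 4.80-fold (7.05, 6.50 and 8.03 against 3.63, 3.62 and 3.57, adjusted p = 0.0226). PM replicate 3 was the highest PM array in all 7 of these genes. Clca1 passed whichever array was left out. Without PM replicate 3 all but Chia1 passed, without PM replicate 1 Chil4, Clca1 and Itln1, and without PM replicate 2 Rnase2a, Clca1 and Fer1l6, while without OVA replicate 1 or OVA replicate 3 the others reached adjusted p up to 0.123 and 0.167.

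Goblet cell and mucus genes as a whole did not follow Clca1. Of 19 tested, 3 passed with PM higher (Clca1, Fcgbp, Itln1) and 2 with OVA higher (Dmbt1, Gp2), and the median of 0.15 lay near that of all genes. The mucin Muc5ac read 5.51, 5.14 and 7.72 in PM and 6.06, 4.07 and 5.18 in OVA and overlapped (-1.02, -2.96 to 0.92), and so did Muc5b (-0.45, -1.27 to 0.38). Tff2, a trefoil peptide packed with mucins, was lower in each OVA array than in any PM array without passing (-0.69, -1.29 to -0.10, adjusted p = 0.122). Agr2, needed to fold mucins, differed by 1.18 in the other direction (0.11 to 2.25, adjusted p = 0.136). Bpifb1 (0.18, -0.23 to 0.58) and the anion exchanger Slc26a4 (0.15, -1.81 to 2.12) differed little in mean, the latter with OVA arrays as far apart as 11.04, 7.62 and 9.54. The transcription factors Spdef and Foxa3 lay below the level for testing. In the plot of these genes in the 4 groups, most means of both single exposures lie above those of the controls.

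**Figure D4:**
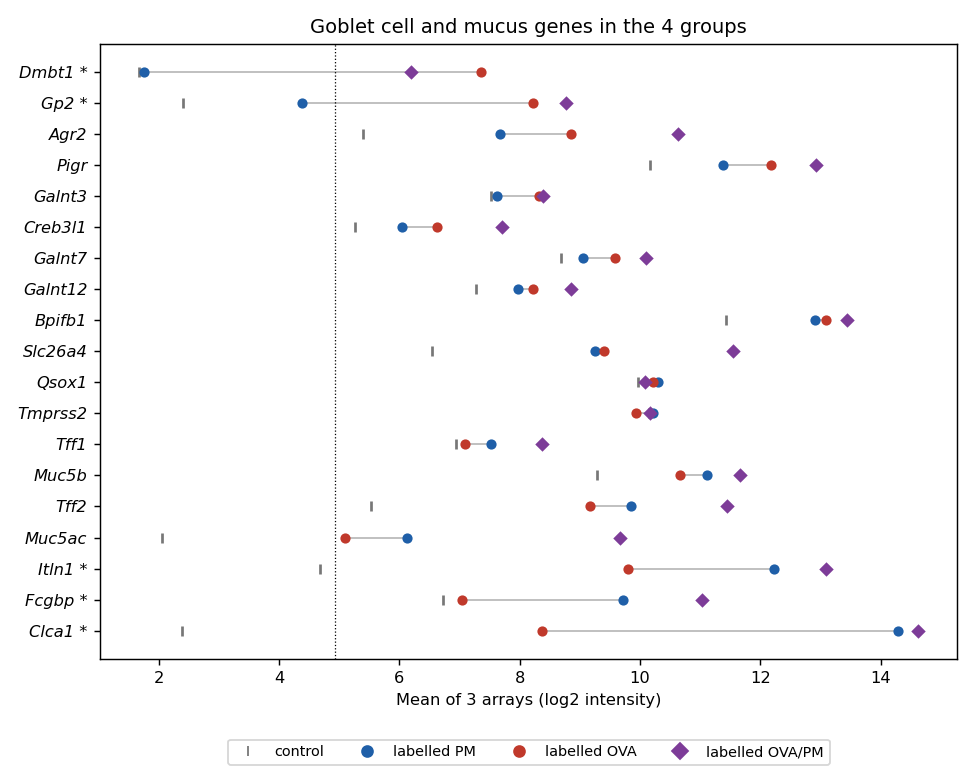
Group means over 3 arrays, as log2 intensity, of the 19 goblet cell and mucus genes tested, ordered by the difference between arrays labelled OVA (red) and PM (blue), with controls (grey bar) and arrays labelled OVA/PM (purple diamond). An asterisk marks a gene that passed between OVA and PM, the grey line joins these means and the dotted line is the level of 4.93. Clca1, Fcgbp and Itln1 lie apart at the PM end and Dmbt1 and Gp2 at the OVA end, and the means of most other genes lie closer together.

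Eosinophil genes beyond Rnase2a gave no further call, with 1 of 4 passed. The eosinophil chemokine Ccl11 (eotaxin) read 9.65, 8.46 and 10.11 in PM and 7.82, 8.20 and 8.81 in OVA, overlapped and did not pass (-1.13, -2.26 to -0.01, adjusted p = 0.160), and Ccl8, which attracts eosinophils and other cells, differed by 0.23 (-1.44 to 1.90). Among lymphocyte genes, the heavy chain Ighm was 2.22-fold higher in PM (14.02, 13.95 and 13.79 against 12.47, 12.64 and 13.21, adjusted p = 0.0417), and 2 of its 6 other probe sets passed in the same direction. The joining chain of secreted antibodies, Jchain, lay apart without passing (-1.20, -2.11 to -0.29, adjusted p = 0.0953). Of 14 B cell and plasma cell genes tested, 1 passed, with PM higher. Their median was 0.22, 8 of the 14 were higher in OVA in mean, and the list means overlapped between the groups. Of 10 natural killer and cytotoxic genes, 2 passed, both with PM higher, granzyme A (Gzma, 8.83, 8.99 and 8.56 against 7.98, 7.68 and 7.84, 1.94-fold) and the inhibitory receptor Klrg1 (2.34-fold). Over all genes tested 1.91% passed with PM higher, and the list's median was 0.07. Kit, a receptor of mast cells and of some lung endothelium (1.60-fold), and Zbtb46, a factor of dendritic cells and endothelium (1.56-fold), were also higher in PM. Of 5 mast cell and basophil genes tested, 1 passed, with PM higher, and the median was 0.11. Of 10 dendritic cell genes, 2 passed with OVA higher and 1 with PM higher. Their median was 0.53, and the list means were higher in OVA without overlap. The calls of Ighm, Gzma, Klrg1, Kit and Zbtb46 were lost without any 1 array other than OVA replicate 2 (adjusted p 0.102 to 0.139 without OVA replicate 1, 0.0850 to 0.169 without OVA replicate 3, and 0.0577 to 0.140 without a PM array).

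Further genes among the 12 largest on the PM side were lower in OVA than in the controls as well. Ces1g, a carboxylesterase of lipid handling, read 7.33, 6.99 and 7.82 in PM and 3.66, 5.79 and 4.56 in OVA, against a control mean of 7.98 (6.54-fold higher in PM as measured, 4.47-fold with the 2 OVA arrays under 4.93 set to that level, adjusted p = 0.0472). Gria1, a glutamate receptor subunit, was 3.21-fold higher in PM (control mean 8.45, PM mean 8.10, OVA mean 6.42). Tex11 (3.49-fold), the lysine-degrading Aass (3.10-fold) and Hepacam2 (at least 2.09-fold) completed the 12. For Ces1g, Gria1, Aass and Hepacam2 the PM and control means lay near each other, in contrast to Chil4, Rnase2a and Clca1. All 5 calls were lost without any 1 array other than OVA replicate 2 (adjusted p 0.108 to 0.126 without OVA replicate 1, 0.165 to 0.172 without OVA replicate 3, and 0.0688 to 0.134 without a PM array).

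Genes of lung endothelium and of the thin alveolar type 1 cells had lower values in OVA by small amounts, and few passed. Of 19 endothelial genes, 3 passed with PM higher and none with OVA higher, and 18 of the 19 were lower in each OVA array than in any PM array, where 22% of all genes tested did so. The list's median was -0.54, and its mean was 11.56, 11.77 and 11.40 in OVA against 12.09, 12.12 and 12.14 in PM. The angiopoietin receptor Tek read 12.61, 13.05 and 12.64 against 13.40, 13.47 and 13.48 (-0.68, 1.61-fold), the related Tie1 differed by -0.75, and Bmp6, a growth factor of endothelium, by -0.85 (adjusted p 0.0438 to 0.0479). The junction protein Cdh5 missed the threshold by little (-0.58, adjusted p = 0.0501). Of 11 alveolar type 1 genes, 2 passed, Rtkn2 (-0.79) and Vegfa (-0.53), both lower in OVA, with Vegfa at 13.15, 13.17 and 13.14 in PM and 12.62, 12.67 and 12.57 in OVA. Ager of the same cells was lower by 0.20 with an interval that held 0 (-0.43 to 0.03). On the list of alternatively activated macrophage genes, Chil4 passed along with Flt1, a receptor of Vegfa best known from endothelium, which was also lower in OVA (-0.77, adjusted p = 0.0465). These were the 2 calls among the 9 genes of that list tested. Its median was -0.37, and 2 of the 9 were higher in OVA in mean. Other genes lower in OVA were the phosphodiesterase Pde5a (-0.53, with 1 of its 2 other probe sets of opposite sign), Cyp2d22 (-1.06), and the heat shock genes Hspa1a (-0.60) and Hspa1b (-0.51), a near-identical pair. That pair gave the 2 calls among 18 heat shock and unfolded protein genes, whose median was 0.04. RGS and phosphodiesterase genes had 1 call among 16 (median -0.13), and cytochrome P450 genes of families 2, 3 and 4 had 1 among 9 (median -0.31). In a fit of all 4 groups Hspa1a and Hspa1b did not pass (adjusted p = 0.332 and 0.441). These calls were lost without any 1 array other than OVA replicate 2 (adjusted p 0.106 to 0.140 without OVA replicate 1, 0.157 to 0.175 without OVA replicate 3, and 0.0664 to 0.141 without a PM array).

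**Figure D5:**
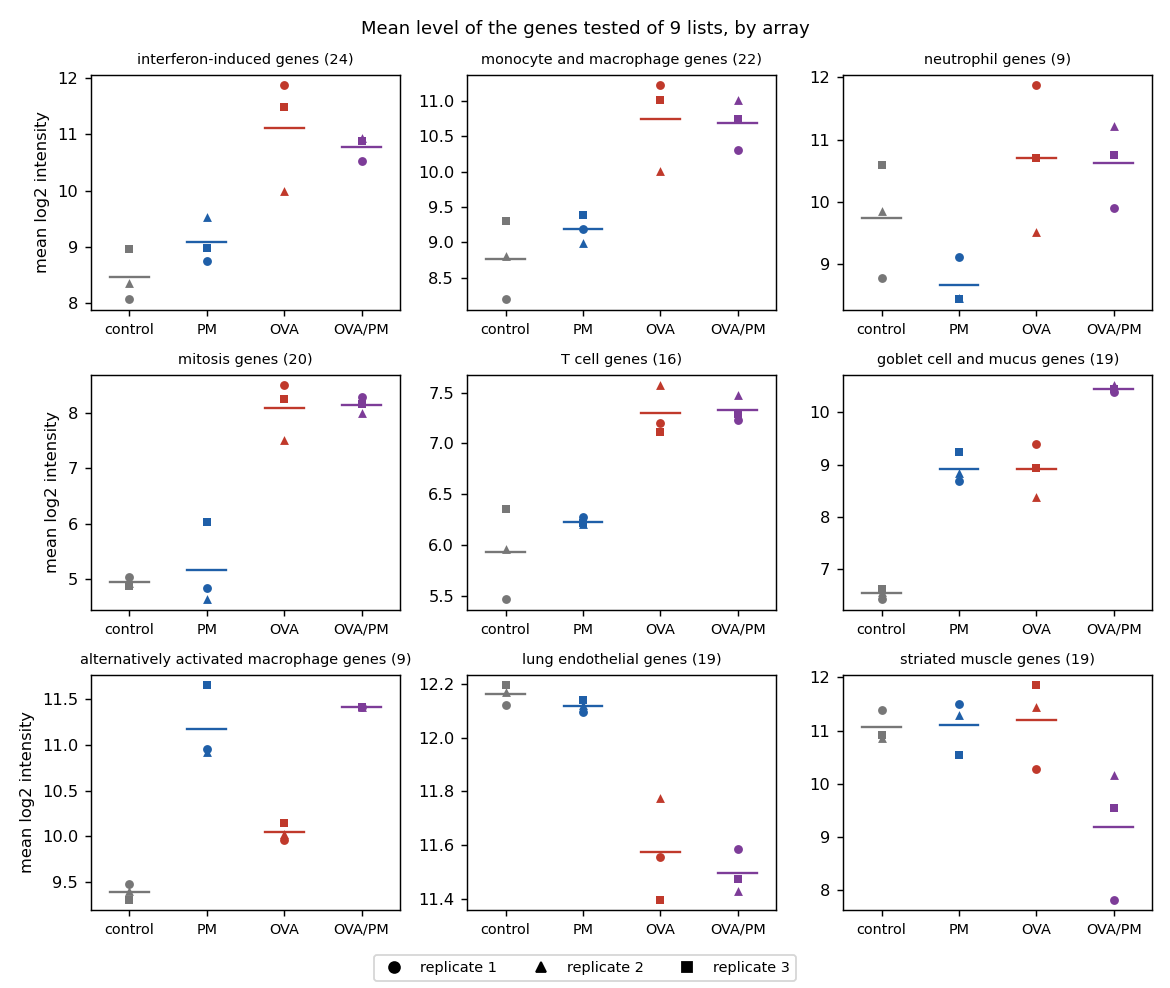
Mean log2 intensity over the genes tested of 9 lists in each of the 12 arrays, by group (horizontal axis), with symbol shape for the replicate number, short bars for group means and a separate vertical range for each panel. OVA replicate 2 (red triangle) is the lowest OVA array for interferon-induced, monocyte, neutrophil, mitosis and goblet cell genes and the highest for T cell and endothelial genes. Striated muscle genes spread within both groups and do not separate them.

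Genes that particles are known to induce directly were looked at by list, with 6.14% of all genes tested having passed in either direction. Of 7 genes tied to the aryl hydrocarbon receptor, Cyp1b1 was 2.32-fold higher in OVA and the receptor Ahr itself 1.42-fold higher in PM. Cyp1a1, the classic target induced by polycyclic hydrocarbons, read 8.25, 8.92 and 8.16 in PM against 6.05, 7.85 and 7.07 in OVA and 8.30 as the control mean, without passing (-1.45, -2.58 to -0.33, adjusted p = 0.1001). Of 15 oxidative stress genes 1 passed, Srxn1, higher in OVA by 1.54-fold, while heme oxygenase Hmox1 (1.57, adjusted p = 0.0511) and Nqo1 (0.33, -0.31 to 0.97) did not. The metallothioneins Mt2 (0.89, adjusted p = 0.0508) and Mt1 (0.47, adjusted p = 0.0603) were close to the threshold, both higher in OVA.

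Airway and surfactant genes moved little. Of 13 club cell genes, Bpifa1 was higher in OVA (13.74, 13.38 and 13.37 against 12.58, 12.42 and 12.21, 2.14-fold) and Lypd2 higher in PM (10.81, 10.78 and 10.85 against 9.94, 10.06 and 9.87, 1.81-fold, adjusted p = 0.0221), and the arrays of each group were within narrow bands. The collectin Sftpd was the 1 gene of 13 alveolar type 2 genes to pass, 1.42-fold higher in OVA. Small differences that passed with OVA higher were also found for the airway scaffold gene Slc9a3r1 (1.42-fold), Plet1 (1.60-fold), Fscn1 of mature dendritic cells (2.16-fold) and the glycolytic Pgk1 (1.45-fold). Striated muscle genes, which enter lung samples with heart and vessel tissue, gave no call among 19 (median 0.14), and their mean ranged from 10.28 to 11.85 over the OVA arrays and from 10.54 to 11.49 over the PM arrays. Circadian clock genes had the lowest median of the 53 lists (-0.55) without a call among 13, as Nr1d1 read 9.44, 9.48 and 8.63 in OVA and 10.54, 10.73 and 9.64 in PM (adjusted p = 0.0995). The 9 calls of airway and related genes named in this paragraph and the one before, held without OVA replicate 2, as did that of Ahr, which was lost without any other array (up to 0.175), and without PM replicate 1 only Fscn1 passed (0.0476). None passed without OVA replicate 1 (0.0872 to 0.140), OVA replicate 3 (0.135 to 0.172), PM replicate 2 (0.0980 to 0.137) or PM replicate 3 (0.0579 to 0.134).

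The control and OVA/PM arrays were not used in the test and place these genes. Of the 480 genes higher in OVA than in PM, the control mean lay nearer the PM mean for 478 and at or under both means for 367. The OVA/PM mean lay nearer the OVA mean for 463 of them. Mmp12, at a mean of 13.63, was above both single exposures in the OVA/PM arrays, and Clec4e, at 10.80, was close to its OVA mean. Of the 216 genes higher in PM, the control mean lay nearer PM for 195, and the OVA/PM mean nearer OVA for 182. Among the 31 of these over 2-fold, the OVA/PM mean lay nearer PM for 14 and nearer OVA for 17. Clca1 (14.63), Chil4 (11.17) and Rnase2a (9.97) in the OVA/PM arrays had the level of the PM arrays, and Ces1g (4.99) and Gria1 (5.93) that of the OVA arrays. Of the 216, the control mean was at or above both means for 92, between them for 113 and at or under both for 11. All these counts cover only genes that passed, and the same shares over all genes tested were not computed.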

How the data were processed

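Whole lung RNA had been hybridised to Affymetrix mouse genome arrays. The deposited values, made by the authors with GCRMA, are log2 intensities, already background-corrected and quantile-normalized across arrays, which pulls array distributions together. Detection calls (MAS5, per the submitters' processing notes) were not used here, and the level of 4.93 stands in for them. Control probe sets (64) were left out. Probe sets with 1 gene symbol (34958 of 45101) were named from the platform annotation. Arrays labelled OVA were compared with those labelled PM with limma 3.58.1 in R 4.3.3 (lmFit, eBayes, two-sided, Benjamini-Hochberg over 22404 probe sets), tested first on simulated data. Intervals are at 95% from the same fit. A fold is written "at least" where every array of the dimmer group lay under 4.93, which then replaces its mean. Differences were ranked on measured values, which have no sure order under that level. Only 3 arrays a group limit the precision, and p-values measure the spread between these arrays. Named genes were the 12 largest differences that passed each way, genes of the study, and leading and largest members of 53 lists. Members and lists were chosen with earlier results of these data known. Alternatives were another filter, offset, scaling, design and test, and leaving out each array.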

Additional observations from a re-analysis of the deposited data

How the results depend on the processing

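Against 1165 probe sets and 326 genes over 2-fold, testing all probe sets with no filter, which doubles those tested, left 4 probe sets and 2 genes, and a filter at the 75th percentile of all values gave 1935 and 202. A filter on group means, an offset, further quantile normalization, centring and the probe set with the lowest p kept both counts within 1.5 times. The fit of all 4 groups passed 3295 probe sets, array weights 4790 with 575 genes, and SAM 6259 with 494 genes. The share of passed probe sets that were higher in OVA was 62.3%, with 47.1% under the 75th percentile filter, 48.7% in the fit of all 4 groups, 42.7% with array weights, 45.9% with SAM and 55.6% to 58.6% under other scalings and the offset. Of 124 genes named that passed, 122 lost the call with no filter, 42 with the replicate block, 14 with the filter on group means, 4 in the fit of all 4 groups, 1 with centring and none with the offset, quantile normalization, array weights or SAM, and 50 were not tested under the 75th percentile filter. Setting dim arrays to 4.93, added after seeing the data, lowered the folds of 19 genes, by over 1.5 times for Cxcl3, Gp2 and Tk1. Leaving out 1 array gave 4 to 3587 probe sets and 3 to 694 genes, and the cause was not tested. Deviations of arrays with equal replicate numbers correlated at -0.01, 0.07 and -0.03, too few values to settle whether the numbers pair the arrays. A fit with the replicate number as a block passed 711 probe sets. Of the genes named that did not pass, 3 changed sign when 1 array was left out, Bpifb1 (-0.00590 to 0.29), Ccl8 (-0.29 to 0.90) and Slc26a4 (-0.66 to 1.05). Signal near 4.93 limits the folds of dim genes, and without detection calls a low value cannot be read as absence.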
